A study of Homo sapiens with 6 samples.

Results

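Transcription of 9 genes that encode luminal lineage transcription factors was followed in T47D breast cancer cells after 5 h of AKT inhibition or AKT degradation. The genes were taken as a list of names (ESR1, FOXA1, GATA3, XBP1, SPDEF, TFAP2C, TFAP2A, ELF3 and TRPS1). All 9 had an interval in the deposited table and at least 10 counts in some library, so the set holds 9 of 20333 gene intervals. The assay was PRO-seq (precision nuclear run-on sequencing): polymerases caught in the act of transcription are allowed to run on in permeabilised cells, and the RNA they label is sequenced, so that reads report ongoing transcription and not stored RNA. T47D is an established luminal line, labelled positive for the estrogen receptor and negative for HER2. All cells were kept in medium with growth factors, and the 3 arms received DMSO (the solvent), 500 nM GDC0068 (an inhibitor of AKT kinase activity) or 100 nM INY-05-040 (a compound that leads to loss of the AKT proteins, called Degrader here). Each arm had 2 libraries, and the series comprises 2 independent experiments in this single cell line. The doses differ because they were chosen to suppress signalling downstream of AKT to a similar degree.

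In luminal breast epithelium, a small group of transcription factors holds the lineage program. FOXA1 and GATA3 open chromatin and bind together with the estrogen receptor, which ESR1 encodes, and the AP-2 factors TFAP2A and TFAP2C occupy many of the same enhancers. SPDEF and ELF3 are epithelial ETS factors, TRPS1 is a GATA-type repressor, and XBP1 is a regulator of the secretory and unfolded protein response that is also induced by estrogen. AKT signalling is linked to this network because PI3K pathway inhibitors are known to alter estrogen receptor activity in luminal cells.

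Total counts lay between 25371819 and 32192576 per library, and the 2 libraries of every arm had a Pearson's r of 0.995 between their log2 levels across genes, where genes are not independent replicates. The counts of the 9 genes ran from 2109 (ELF3 in a GDC0068 library) to 142799 (TRPS1 in a Degrader library), so counting error alone was 2.18% to 0.265%; this covers counting error only. The labelled cell type was checked against marker lists. All 20 luminal markers had an interval, 19 of them above a mean of 10 CPM (counts scaled to library size), and their summed level was 7338 to 7401 CPM in DMSO, 7355 to 8033 CPM under GDC0068 and 7818 to 8071 CPM under Degrader. PRLR, the prolactin receptor, carried about as much of this sum as all other markers together, at 3457 to 3836 CPM in DMSO, 3486 to 4187 CPM under GDC0068 and 3879 to 4354 CPM under Degrader; the other 19 summed to 3565 to 3882, 3847 to 3870 and 3716 to 3939 CPM, so that their Degrader range overlapped that of DMSO. Of 12 basal markers 5 had an interval. Their sums were 74.9 to 77.0 CPM in DMSO, 80.1 to 84.4 CPM under GDC0068 and 75.3 to 83.8 CPM under Degrader, carried mainly by EGFR. KRT5, KRT14 and TP63 had no interval in the data used here and could not be checked. Of 10 mesenchymal markers 3 had an interval, and their sum was 7.47 to 8.41 CPM over the 6 libraries. Of 6 immune markers 2 had an interval: CD14 at 0.35 to 0.56 CPM, and CD68, a lysosomal protein also made outside the immune system, at 77.2 to 83.6 CPM in DMSO, 62.6 to 67.6 CPM under GDC0068 and 55.1 to 64.4 CPM under Degrader. CD68 fell by 0.43 under Degrader and by 0.30 under GDC0068 (edgeR adjusted p of 0.00361 and 0.0487). In this fit, which leaves out the replicate number, no other gene of the basal, mesenchymal and immune lists was called. The GDC0068 call of CD68 was lost without any 1 of the DMSO and GDC0068 libraries. It was also lost by limma-voom (adjusted p = 0.0512) and with upper-quartile scaling (edgeR adjusted p = 0.0551). With the replicate number entered as a block, edgeR also called basal markers. Under Degrader these were FOXC1 (-0.54, edgeR adjusted p = 0.00185) and ACTA2 (0.51, edgeR adjusted p = 0.0129), both under 10 CPM in every library. EGFR was called under GDC0068 (0.13, edgeR adjusted p = 0.0467) and FOXC1 between the drugs (-0.52, edgeR adjusted p = 0.0108). The part of CD68 and of these markers in the other results was not tested. None of the markers with an interval was at 0 in every library. In bulk libraries, fewer cells with a transcript and less of it per cell cannot be told apart.

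The 4 promoters below belong to the genes with the highest and lowest change under each drug: TFAP2A and ELF3 under Degrader, XBP1 and ESR1 under GDC0068. They are RefSeq windows of 300 bases (250 before to 50 after the start, assembly GRCh38.p14), printed 5′ to 3′ on the gene's strand. Capitals mark matches to a TATA box (TATAAA) or a CCAAT box (CCAAT) on either strand. Windows of 7 of the 9 genes were examined, each with a RefSeq start within 100 bp of the start in the table. The 4 printed here lay 0 to 29 bp from it. TFAP2C had no RefSeq start within that distance. No window of TRPS1 was examined, so nothing is said of its promoter.
TFAP2A, chr6:10419610-10419909, minus strand: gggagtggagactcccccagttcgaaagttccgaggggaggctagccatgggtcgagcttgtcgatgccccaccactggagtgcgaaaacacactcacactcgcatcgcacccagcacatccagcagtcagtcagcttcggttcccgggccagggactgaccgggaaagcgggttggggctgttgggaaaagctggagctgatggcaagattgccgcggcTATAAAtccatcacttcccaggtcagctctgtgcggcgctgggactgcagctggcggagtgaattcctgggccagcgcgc
ELF3, chr1:202010337-202010636, plus strand: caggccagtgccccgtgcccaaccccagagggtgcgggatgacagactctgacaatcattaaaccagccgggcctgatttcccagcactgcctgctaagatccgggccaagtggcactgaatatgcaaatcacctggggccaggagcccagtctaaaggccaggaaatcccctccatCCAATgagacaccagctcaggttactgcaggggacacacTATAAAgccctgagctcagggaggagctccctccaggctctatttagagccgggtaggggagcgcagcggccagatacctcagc
XBP1, chr22:28800520-28800819, minus strand: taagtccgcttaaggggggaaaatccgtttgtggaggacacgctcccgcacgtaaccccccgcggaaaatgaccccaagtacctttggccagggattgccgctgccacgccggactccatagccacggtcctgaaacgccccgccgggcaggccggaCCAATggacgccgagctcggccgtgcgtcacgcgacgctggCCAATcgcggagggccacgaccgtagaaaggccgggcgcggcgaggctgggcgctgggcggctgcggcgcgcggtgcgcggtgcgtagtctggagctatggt
ESR1, chr6:151807432-151807731, plus strand: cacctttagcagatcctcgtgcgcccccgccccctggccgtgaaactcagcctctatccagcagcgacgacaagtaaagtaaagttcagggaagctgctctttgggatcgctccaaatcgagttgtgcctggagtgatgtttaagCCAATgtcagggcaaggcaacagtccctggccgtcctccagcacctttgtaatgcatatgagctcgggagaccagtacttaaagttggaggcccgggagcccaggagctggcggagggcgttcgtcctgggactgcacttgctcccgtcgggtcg
TFAP2A and ELF3 each hold a TATA box, which begins 30 and 34 bases before the start. TATAAA was found in 2 of the 7 windows examined and in 11.5% of all 35114 RefSeq windows of this length. The XBP1 window holds 2 CCAAT boxes, and those of ELF3 and ESR1 hold 1 each; CCAAT is present in 34.6% of all windows. The letters of the estrogen response element (GGTCA and TGACC with 3 bases between them), the forkhead site (GTAAACA) and the GATA site (AGATAA) matched none of the 7 windows on either strand, and they matched 0.057%, 3.42% and 10.3% of all windows. An AP-2 site (GCCNNNGGC, in 23.2% of all windows) and an ETS site (CCGGAA, in 17.2%) were found in the GATA3 window alone. The E-box (CACGTG, in 7.26%) and the cyclic AMP element (TGACGTCA, in 1.85%) matched none of the 7. No 2 of these matches overlapped. A match is a description of the letters and not of binding.

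Transcription of the luminal factor genes changed little after 5 h. Under Degrader, TFAP2A rose and ELF3 fell, and the other 7 genes did not pass the test; under GDC0068 none of the 9 passed. No member moved by more than 0.23 on the log2 scale in any contrast, and 28.9% of all genes tested had a larger change than that under Degrader. A gene was called at an edgeR adjusted p under 0.05 over all 19902 intervals tested. Under Degrader 2 of 9 genes were called (1 higher, 1 lower), where 15.3% of all intervals tested were called, and 25.8% of the 3417 intervals at least as abundant as ELF3, so the count lies close to the background. It was 0 without DMSO replicate 1, Degrader replicate 1 or Degrader replicate 2, 1 without DMSO replicate 2 and 3 without either GDC0068 library. Under GDC0068 edgeR called 0 of 9, against 3.58% of all intervals tested. An unadjusted edgeR p under 0.05 was found for 3 of the 9 and for 3972 of the 19902 intervals tested. DESeq2 and limma-voom each called 1, XBP1. The median log2 fold change of the 9 was 0.07 under Degrader and -0.04 under GDC0068, beside -0.00 and 0.01 over all intervals tested.

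The replicate number, entered as a block, removes a difference shared by libraries of the same number, and it raised these counts. With the replicate block edgeR called 6 of 9 under Degrader (4 higher, 2 lower) and 4 of 9 under GDC0068 (1 higher, 3 lower). In the same fit 30.7% and 17.8% of all intervals were called, and 52.6% and 32.8% of those at least as abundant as ELF3. The members' shares in that fit were 66.7% and 44.4%, and no test compared them with these backgrounds. For 7 of the 9 genes the libraries of Degrader and DMSO did not overlap (5 higher, 2 lower), as for 58.6% of all intervals tested; under GDC0068 this held for 7 of 9 (3 higher, 4 lower) and for 50.1% of all intervals. Both contrasts use the same DMSO libraries.

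**Figure D1:**
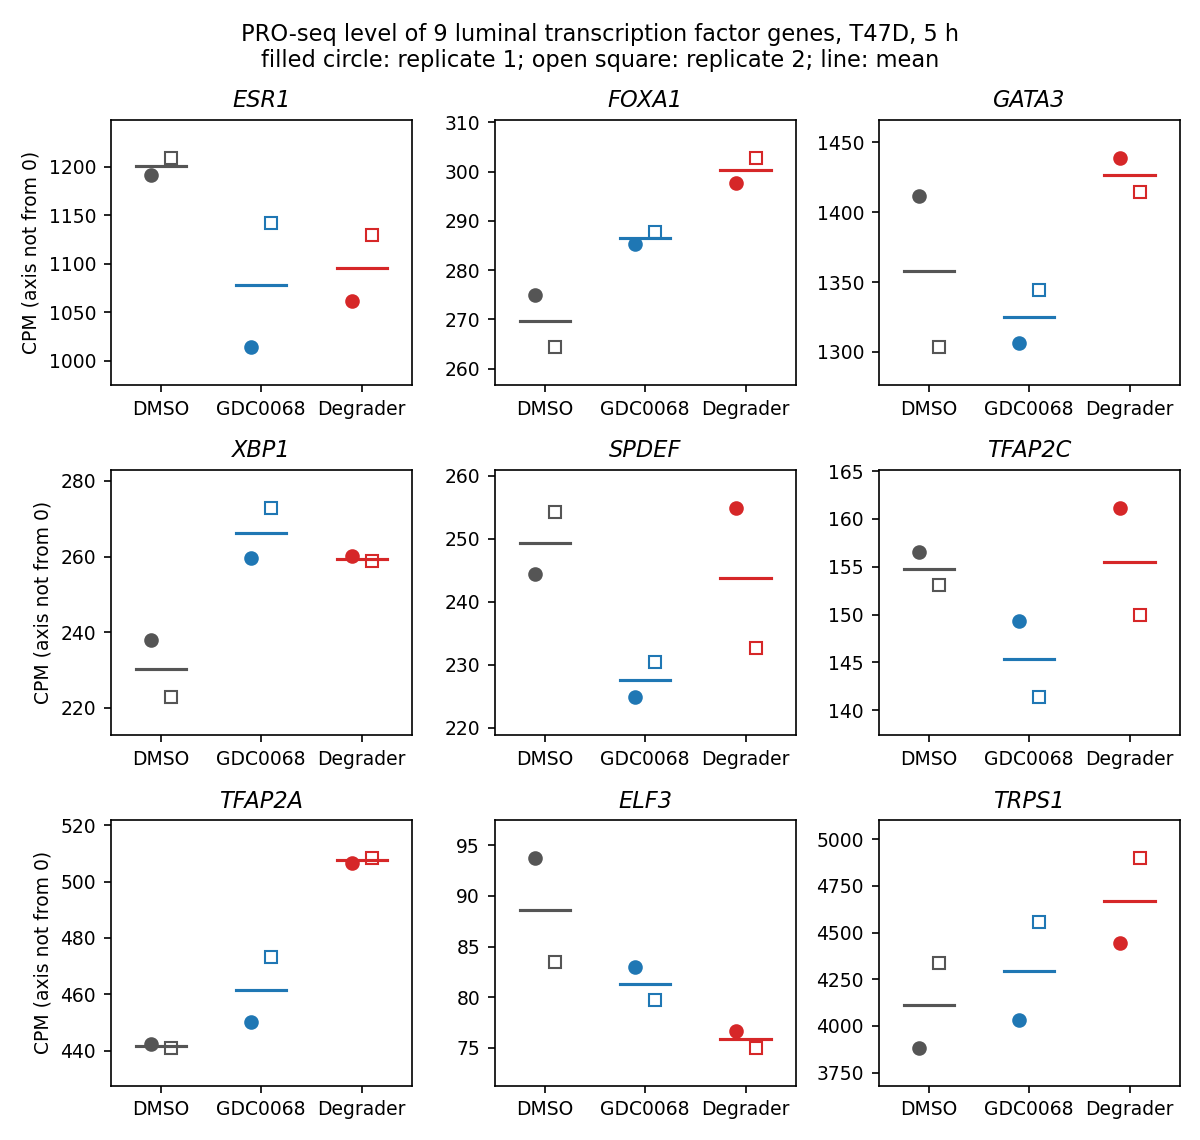
Level of each of the 9 genes in CPM, by arm, with replicate 1 as filled circles, replicate 2 as open squares and the mean as a line; the axes do not start at 0. TFAP2A and FOXA1 are higher in both Degrader libraries than in either DMSO library, ELF3 is lower, and SPDEF and TFAP2C overlap between these arms.

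**Figure D2:**
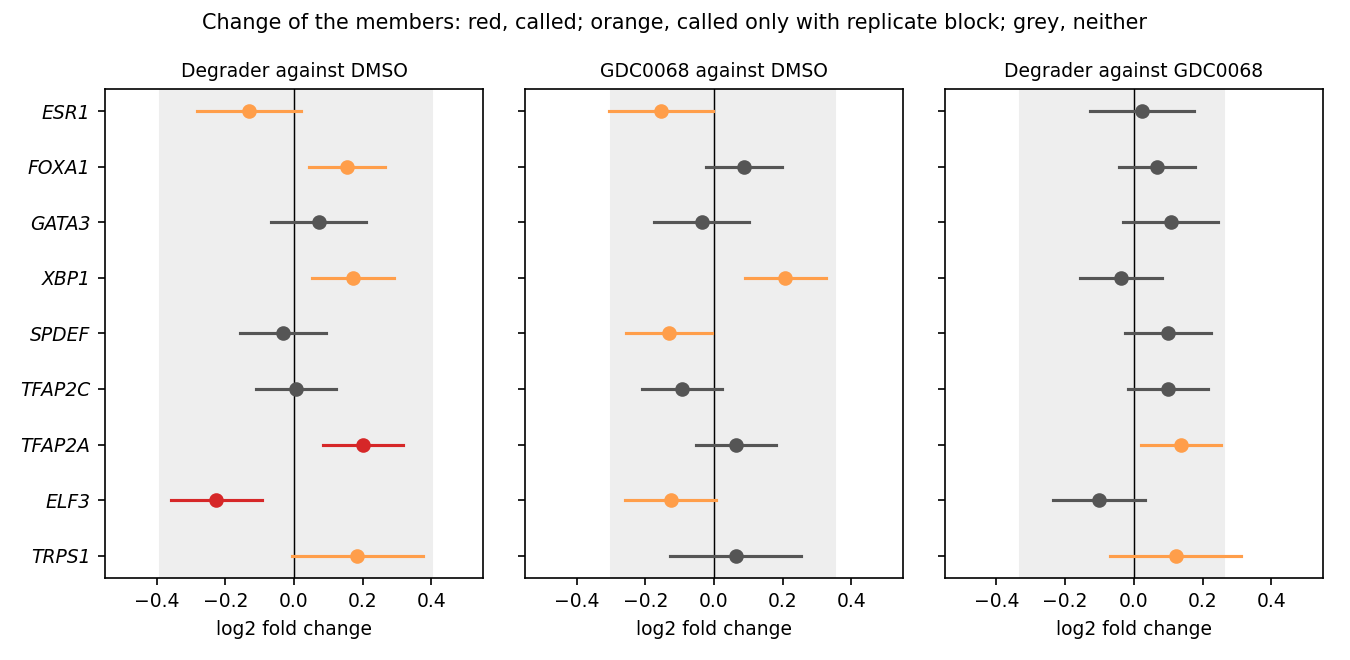
Log2 fold change of each gene with its 95% interval in the 3 contrasts, from edgeR. Red marks genes called over all intervals tested, orange those called only with the replicate block and grey the others; the shaded band holds the 5th to 95th percentile of all intervals tested, which all 9 points lie within in each contrast.

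ESR1, FOXA1 and GATA3 form the core of the luminal program. ESR1 (ENSG00000091831, chromosome 6, 151807653 to 152103274, plus strand) stood at 1192 and 1209 CPM in DMSO, at 1014 and 1142 CPM under GDC0068 and at 1062 and 1129 CPM under Degrader. Both drug arms lay below both DMSO libraries, and the drug arms overlapped each other. The log2 fold change was -0.16 under GDC0068 (SE 0.0693, edgeR adjusted p = 0.238; 95% interval -0.31 to -0.00) and -0.13 under Degrader (SE 0.0693, edgeR adjusted p = 0.230; 95% interval -0.28 to 0.02). With the replicate block both were called, with edgeR adjusted p of 0.0047 and 0.00921. Within replicate 1 the values were -0.23 under GDC0068 and -0.17 under Degrader, and within replicate 2 they were -0.08 and -0.10, so the sign was the same in each. The GDC0068 value was -0.074 without GDC0068 replicate 1 and -0.25 without GDC0068 replicate 2.

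FOXA1 (ENSG00000129514, chromosome 14, 37589552 to 37595234, minus strand), the pioneer factor of the estrogen receptor, lay at 275 and 264 CPM in DMSO, at 285 and 288 CPM under GDC0068 and at 298 and 303 CPM under Degrader. The arms did not overlap, with DMSO lowest and Degrader highest. Its log2 fold change of 0.16 under Degrader just missed the threshold (SE 0.0507, edgeR adjusted p = 0.0599; 95% interval 0.05 to 0.27). The replicate block gave a call (edgeR adjusted p = 0.00124), as did robust estimation (edgeR adjusted p = 0.0418) and limma-voom (adjusted p = 0.0330). The Degrader value was 0.13 without DMSO replicate 2 and 0.18 without DMSO replicate 1. Under GDC0068 the value was 0.09 (SE 0.0507, edgeR adjusted p = 0.368), and it was not called with the block either (edgeR adjusted p = 0.0913).

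GATA3 (ENSG00000107485, chromosome 10, 8054688 to 8075198, plus strand), the luminal GATA factor, had 1412 and 1303 CPM in DMSO, 1306 and 1344 CPM under GDC0068 and 1439 and 1414 CPM under Degrader. The DMSO libraries spanned the GDC0068 ones, and both Degrader libraries lay just above them. The log2 fold change was 0.07 under Degrader (SE 0.0632, edgeR adjusted p = 0.492; 95% interval -0.07 to 0.21) and -0.04 under GDC0068 (SE 0.0632, edgeR adjusted p = 0.809; 95% interval -0.17 to 0.10). Neither was called with the replicate block. The Degrader value was 0.13 without DMSO replicate 1 and 0.015 without DMSO replicate 2. These intervals leave room for changes of up to 15.7% upward under Degrader and 11.3% downward under GDC0068.

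XBP1 and SPDEF are linked to secretion and luminal differentiation. XBP1 (ENSG00000100219, chromosome 22, 28794555 to 28800566, minus strand) stood at 238 and 223 CPM in DMSO, at 260 and 273 CPM under GDC0068 and at 260 and 259 CPM under Degrader. Every drug library lay above both DMSO libraries. XBP1 had the highest change of the 9 under GDC0068, 0.21 on the log2 scale (SE 0.0543, edgeR adjusted p = 0.0584; 95% interval 0.09 to 0.33), and 0.17 under Degrader (SE 0.0543, edgeR adjusted p = 0.0543; 95% interval 0.05 to 0.29). Both values just missed the threshold. Both were called under the replicate block (edgeR adjusted p of 2.90e-04 and 9.83e-04), with robust estimation (edgeR adjusted p of 0.0368 and 0.0365) and by limma-voom (adjusted p of 0.0415 and 0.0357). Without DMSO replicate 2 the values were 0.16 under GDC0068 and 0.12 under Degrader. Without DMSO replicate 1 they were 0.25 and 0.22.

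SPDEF (ENSG00000124664, chromosome 6, 34537802 to 34556329, minus strand), an ETS factor of secretory epithelia, lay at 244 and 254 CPM in DMSO, 225 and 230 CPM under GDC0068 and 255 and 233 CPM under Degrader. The GDC0068 libraries were below all others, and the Degrader libraries fell on either side of DMSO. Its log2 fold change was -0.13 under GDC0068 (SE 0.0569, edgeR adjusted p = 0.225), which was called under the replicate block (edgeR adjusted p = 0.0220). Under Degrader it was -0.03 (SE 0.0568, edgeR adjusted p = 0.753; 95% interval -0.16 to 0.09), with 0.06 within replicate 1 and -0.13 within replicate 2.

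The AP-2 genes TFAP2A and TFAP2C encode related factors that bind the same DNA site. TFAP2A (ENSG00000137203, chromosome 6, 10397872 to 10419659, minus strand) gave 442 and 441 CPM in DMSO, 450 and 473 CPM under GDC0068 and 507 and 508 CPM under Degrader. The replicates of DMSO and of Degrader nearly coincided, and the GDC0068 libraries lay between them. TFAP2A rose by 0.20 under Degrader (SE 0.0535, edgeR adjusted p = 0.0274; 95% interval 0.08 to 0.32), which is 14.9%, with 0.20 within replicate 1 and 0.21 within replicate 2. Its call was lost when any one of the DMSO or Degrader libraries was left out (edgeR adjusted p from 0.121 to 0.191), although the value stayed at 0.19 to 0.20. Under GDC0068 it was 0.06 (SE 0.0535, edgeR adjusted p = 0.549; 95% interval -0.05 to 0.18).

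TFAP2C (ENSG00000087510, chromosome 20, 56630231 to 56639283, plus strand) had 157 and 153 CPM in DMSO, 149 and 141 CPM under GDC0068 and 161 and 150 CPM under Degrader. The Degrader libraries enclosed those of DMSO, and the GDC0068 libraries lay below both arms. The log2 fold change was 0.01 under Degrader (SE 0.0531, edgeR adjusted p = 0.951; 95% interval -0.11 to 0.12) and -0.09 under GDC0068 (SE 0.0532, edgeR adjusted p = 0.369; 95% interval -0.21 to 0.02). Neither was called under the replicate block (edgeR adjusted p of 0.911 and 0.0704). Whether the changes of TFAP2A and TFAP2C differ from each other was not tested.

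ELF3 and TRPS1 are regulators of epithelial identity. ELF3 (ENSG00000163435, chromosome 1, 202010583 to 202016009, plus strand), an ETS factor of epithelial differentiation, stood at 93.7 and 83.5 CPM in DMSO, 83.0 and 79.7 CPM under GDC0068 and 76.7 and 75.0 CPM under Degrader. Every GDC0068 library was below both DMSO libraries, and both Degrader libraries were lower still. ELF3 fell by 0.23 on the log2 scale under Degrader (SE 0.0609, edgeR adjusted p = 0.0286; 95% interval -0.36 to -0.09), a change of -14.5%. Leaving out DMSO replicate 1, the higher control, reduced it to -0.14 (edgeR adjusted p = 0.255), and without Degrader replicate 1 or 2 it was -0.24 and -0.22 and not called (edgeR adjusted p of 0.0840 and 0.149). Under GDC0068 it was -0.13 (SE 0.0608, edgeR adjusted p = 0.277), called under the replicate block (edgeR adjusted p = 0.0420); without DMSO replicate 1 it was -0.043 and without DMSO replicate 2 it was -0.21.

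TRPS1 (ENSG00000104447, chromosome 8, 115408496 to 115669194, minus strand), a GATA-type repressor of luminal cells, had 3883 and 4337 CPM in DMSO, 4032 and 4555 CPM under GDC0068 and 4442 and 4899 CPM under Degrader. In each arm replicate 2 was the higher library. The spread within an arm was about as large as the difference between Degrader and DMSO (561 CPM). It was larger than that between GDC0068 and DMSO (183 CPM). The log2 fold change of 0.18 under Degrader was not called (SE 0.0869, edgeR adjusted p = 0.180; 95% interval -0.00 to 0.37), and it was 0.10 without DMSO replicate 1 or without Degrader replicate 2. Within replicate 1 it was 0.19 and within replicate 2 it was 0.18, and with the replicate block it was called (SE 0.0372, edgeR adjusted p = 3.36e-04). Under GDC0068 it was 0.06 (SE 0.0868, edgeR adjusted p = 0.739) and was not called with the block (edgeR adjusted p = 0.269).

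Several of these genes share their locus with another transcript, and the use of strand in counting is not given in the sources used here. ELF3-AS1 (chromosome 1, 201995696 to 202010362, minus strand) begins 221 bp from the ELF3 start and runs the other way, and both starts lie within the ELF3 promoter window printed above. It had 18.0 and 17.5 CPM in DMSO, 14.7 and 14.2 CPM under GDC0068 and 15.0 and 13.1 CPM under Degrader. All drug libraries were below both DMSO libraries. ELF3-AS1 fell by 0.34 under Degrader (SE 0.0979, edgeR adjusted p = 0.0380), in the same direction as ELF3, and DESeq2 did not call it (adjusted p = 0.0704). It was also not called without Degrader replicate 2 (-0.25, edgeR adjusted p = 0.256), without DMSO replicate 1 (-0.32, edgeR adjusted p = 0.177) or without DMSO replicate 2 (-0.36, edgeR adjusted p = 0.0980). Under GDC0068 it was -0.30 (SE 0.0980, edgeR adjusted p = 0.121), called under the replicate block (edgeR adjusted p = 0.0221).

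Within TFAP2A, the antisense transcript TFAP2A-AS1 (chromosome 6, 10409696 to 10416446, plus strand) gave 71.1 and 66.0 CPM in DMSO, 79.0 and 80.4 CPM under GDC0068 and 80.3 and 81.3 CPM under Degrader. Both drug arms were above both DMSO libraries. TFAP2A-AS1 rose by 0.24 under Degrader (SE 0.0540, edgeR adjusted p = 0.0136); it was 0.18, 0.24 and 0.22 and not called without DMSO replicate 2, Degrader replicate 1 or Degrader replicate 2 (edgeR adjusted p of 0.102, 0.0572 and 0.113). Under GDC0068 it was 0.22 (SE 0.0542, edgeR adjusted p = 0.0514), called under the replicate block (edgeR adjusted p = 9.39e-04). Without stated use of strand, reads of the pair cannot be told apart. The mean of TFAP2A was 66.0 CPM higher under Degrader than in DMSO, and that of TFAP2A-AS1 was 12.2 CPM higher.

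The other transcripts at these loci did not pass the test against DMSO. GATA3-AS1 (chromosome 10, 8050450 to 8054365, minus strand), which begins 323 bp from GATA3, had 157 and 142 CPM in DMSO, 156 and 151 CPM under GDC0068 and 150 and 146 CPM under Degrader, with all arms overlapping DMSO. Its log2 fold change was -0.02 under Degrader (edgeR adjusted p = 0.886) and 0.04 under GDC0068 (edgeR adjusted p = 0.739). Z93930.2, which begins 253 bp from XBP1 on the other strand, gave -0.10 and -0.03 (edgeR adjusted p of 0.627 and 0.937). AL138885.3, antisense inside TFAP2A, gave 0.26 and 0.34 (edgeR adjusted p of 0.250 and 0.206), and the second of these was called under the replicate block (edgeR adjusted p = 0.0434). The Degrader value ran from 0.049 without Degrader replicate 2 to 0.43 without Degrader replicate 1, and the GDC0068 value was 0.20 without DMSO replicate 2. AL691482.4 lies on the same strand inside ELF3, over 4521 bp, and its reads can be shared with ELF3; its values were -0.18 and -0.04 (edgeR adjusted p of 0.151 and 0.804).

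**Figure D3:**
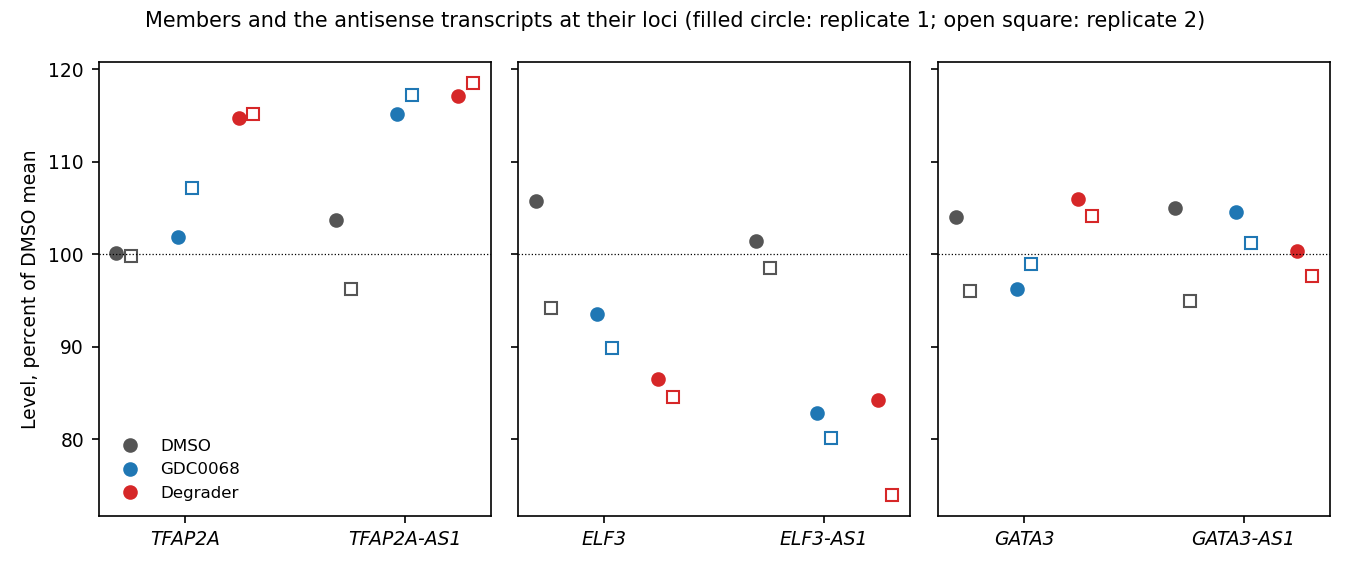
Level of TFAP2A, ELF3 and GATA3 and of the antisense transcript at each locus, as a percent of the DMSO mean, by arm, with replicate 1 as filled circles and replicate 2 as open squares; the axis does not start at 0. TFAP2A and TFAP2A-AS1 are above DMSO in all drug libraries, ELF3 and ELF3-AS1 are below it, and the GATA3 pair stays near 100 percent.

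Levels between genes were compared per length, as CPM per kb of interval. In DMSO, GATA3 was the highest of the 9 at 66.2 ± 3.7 CPM per kb (SD, n = 2 here and below), followed by FOXA1 at 47.4 ± 1.3 and XBP1 at 38.3 ± 1.8. These 3 were above the other 6 without overlap, and in this measure they stood above 99.1%, 98.8% and 98.5% of all intervals tested. TFAP2A followed with 20.3 ± 0.039 CPM per kb, TFAP2C with 17.1 ± 0.27, ELF3 with 16.3 ± 1.3 and TRPS1 with 15.8 ± 1.2. ELF3 overlapped both TFAP2C and TRPS1, so its place beside them was not beyond their spread. The TFAP2C libraries (17.3 and 16.9 CPM per kb) lay above both TRPS1 libraries (14.9 and 16.6). SPDEF had 13.5 ± 0.37 CPM per kb and ESR1 had 4.06 ± 0.042, the lowest of the 9. ESR1 has the longest interval of the 9, 295622 bp, and its count per library was among the highest of all intervals, at rank 13 in DMSO, with GATA3 at rank 10 and TRPS1 at rank 2; reads per gene and reads per length thus order the members differently. Under GDC0068 and under Degrader the same 4 genes led in the same order, and TRPS1 moved from the seventh to the fifth place, overlapping TFAP2C in both arms.

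**Figure D4:**
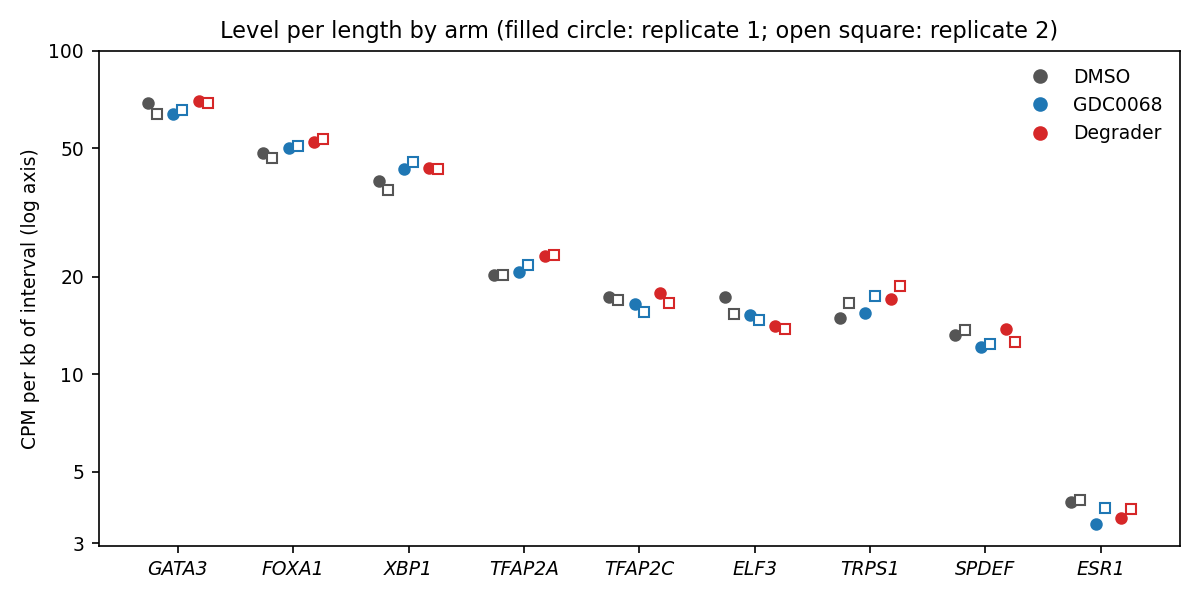
Level of each gene in CPM per kb of interval on a log axis, in the order of the DMSO means, with arms by colour, replicate 1 as filled circles and replicate 2 as open squares. GATA3, FOXA1 and XBP1 lie highest and ESR1 lowest in every library.

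The direct contrast asked whether degradation and inhibition of AKT differ in their effect on these genes, at doses of 100 nM and 500 nM. edgeR called 0 of 9 between the drugs, where it called 0.266% of all intervals tested. An unadjusted edgeR p under 0.05 was found for 1 of the 9 and for 2811 of the 19902 intervals tested. DESeq2 and limma-voom called 0 of the 9. The libraries of the arms did not overlap for 6 of 9 genes (5 higher under Degrader, 1 lower), as for 45.0% of all intervals tested. TFAP2A had the largest difference, 0.14 higher under Degrader (SE 0.0535, edgeR adjusted p = 0.281; 95% interval 0.02 to 0.25), and it was called under the replicate block (edgeR adjusted p = 0.0132). TRPS1 was the other gene called with the block, at 0.12 (edgeR adjusted p = 0.0338), so that 2 of 9 passed in that fit, against 10.4% of all intervals and 20.7% of those at least as abundant as ELF3.

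For the other 7 genes no difference between the drugs was called in either fit. ESR1 differed by 0.02 (95% interval -0.13 to 0.17) and XBP1 by -0.04 (-0.16 to 0.08), which leaves room for differences of up to 12.9% higher or 10.2% lower under Degrader. GATA3 differed by 0.11 (-0.03 to 0.25), SPDEF by 0.10 (-0.03 to 0.22) and TFAP2C by 0.10 (-0.02 to 0.21), all without a call. FOXA1 gave 0.07 (-0.04 to 0.18) and ELF3 -0.10 (-0.23 to 0.03). A p that misses the threshold does not show that the drugs act alike on them.

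Partner transcription factors of the luminal network were examined as a list of 48 genes, of which 43 were in the table and were tested. Under Degrader, edgeR called 13 of 43 (8 higher, 5 lower), a share of 30.2% against 15.3% of all intervals tested, and of the 23 genes at least as abundant as ELF3 it called 7 (30.4%, against 25.8% of all such intervals). No test compared these shares, and the median log2 fold change was 0.02 beside -0.00 over all intervals. ZNF217, a zinc finger oncogene product of luminal tumours, lay at 214 and 213 CPM in DMSO, 240 and 236 CPM under GDC0068 and 265 and 266 CPM under Degrader, with no overlap between arms. It rose by 0.31 under Degrader (SE 0.0483, edgeR adjusted p = 0.00184). MYB, which is transcribed in cells with active estrogen receptor, stood at 68.6 and 59.0 CPM in DMSO against 88.9 and 80.8 CPM under Degrader and rose by 0.41 (edgeR adjusted p = 0.00458). LMX1B, a LIM homeodomain factor, stood at 130 and 117 CPM in DMSO against 97.1 and 87.3 CPM under Degrader and fell by 0.42 (edgeR adjusted p = 0.00225). NR2F2, an orphan nuclear receptor, rose by 0.27 (edgeR adjusted p = 0.00480), a call that was lost without DMSO replicate 1 (0.25, edgeR adjusted p = 0.0568). The called genes thus included larger changes than any of the 9 luminal factor genes, in both directions. Without DMSO replicate 1 the count was 6, without DMSO replicate 2 or Degrader replicate 1 it was 7, and without Degrader replicate 2 it was 5. The fit with the replicate block called 20 (12 higher, 8 lower), a share of 46.5% where that fit called 30.7% of all intervals; of the 23 abundant genes it was 11 (47.8%), below the 52.6% of all such intervals.

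Under GDC0068, edgeR called 1 of 43 partner genes (2.33%, against 3.58% of all intervals tested). It was NR2F2, which stood at 103 and 107 CPM in DMSO against 123 and 123 CPM under GDC0068 and rose by 0.23 (SE 0.0508, edgeR adjusted p = 0.0332). NR2F2 was not called without any 1 of the DMSO and GDC0068 libraries (edgeR adjusted p from 0.0985 to 0.206), so that the count was 0 in each of these 4 fits; it was 2 without either Degrader library (1 higher, 1 lower). Entering the block gave 15 calls (11 up, 4 down), or 34.9% against 17.8% of all intervals in that fit, and 8 of the 23 abundant genes (34.8%, against 32.8% of all such intervals). Between the drugs edgeR called 0 of 43, against 0.266% of all intervals tested. An unadjusted edgeR p under 0.05 was found for 8 of the 43 and for 2811 of the 19902 intervals tested. DESeq2 and limma-voom also called 0 of the 43. The fit with the block called 10 (5 higher, 5 lower), or 23.3% against 10.4% of all intervals, with 6 of the 23 abundant genes (26.1%, against 20.7%).

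**Figure D5:**
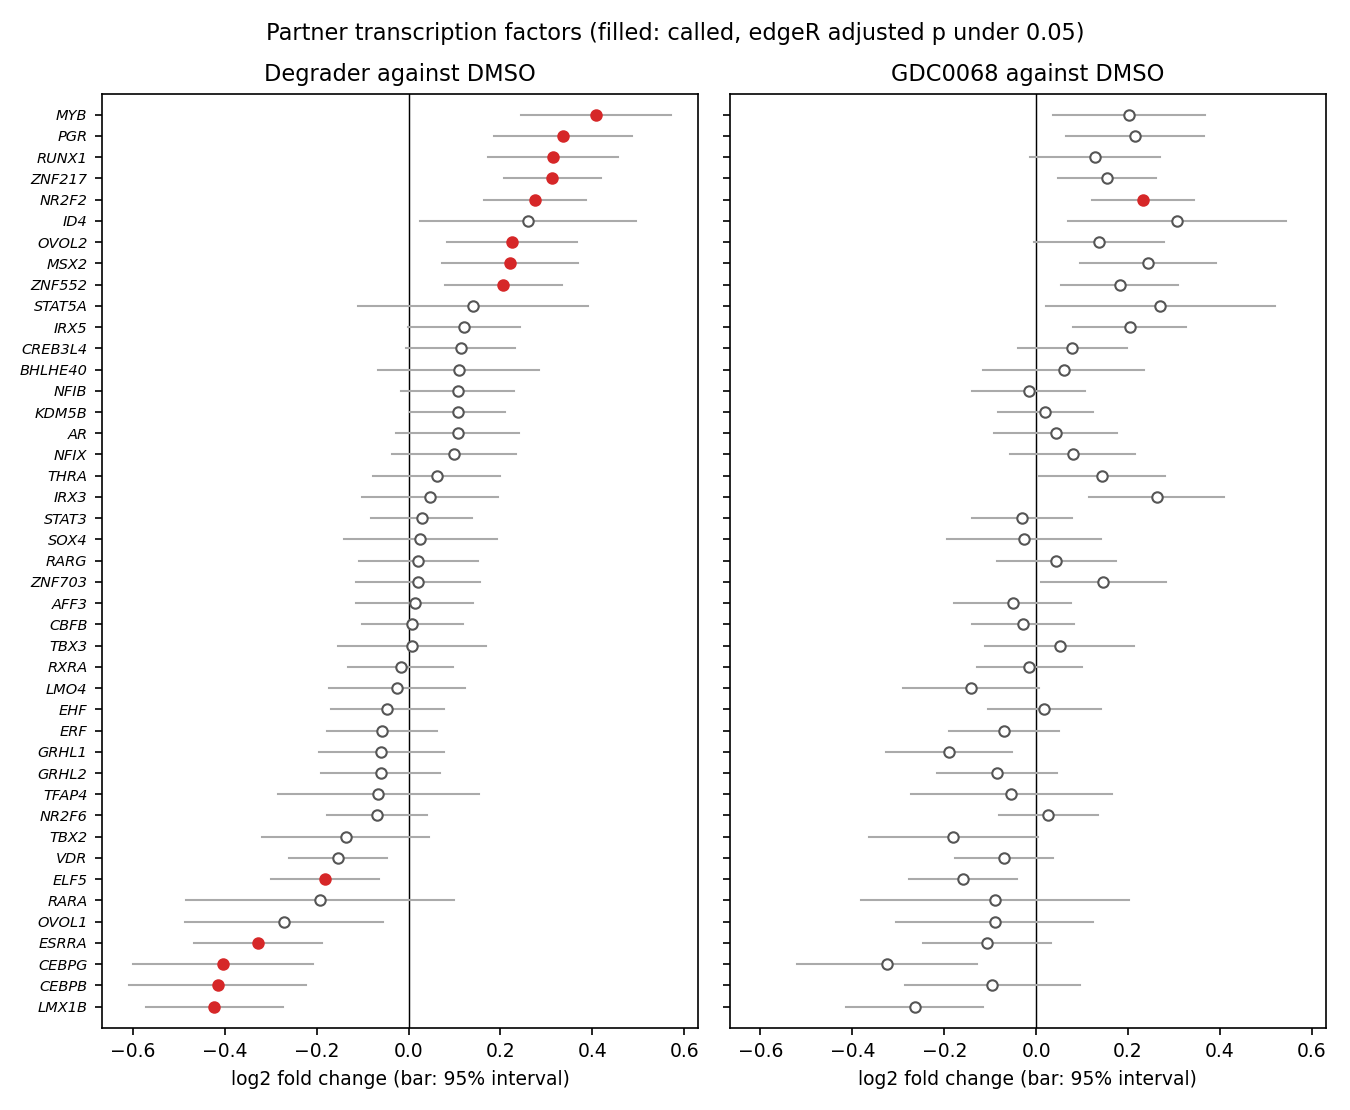
Log2 fold change with its 95% interval for the 43 partner transcription factors under each drug against DMSO, sorted by the Degrader value; filled points were called by edgeR over all intervals tested. MYB is at the top with 0.41 and LMX1B at the bottom with -0.42 under Degrader; 13 points are filled there and 1 under GDC0068.

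Coregulators of the estrogen receptor and chromatin enzymes formed a list of 31, of which 30 were tested. Under Degrader edgeR called 4 of 30 (13.3%, 1 higher and 3 lower), near the 15.3% of all intervals. TLE3, a Groucho corepressor that acts with FOXA1, stood at 214 and 219 CPM in DMSO, 176 and 191 CPM under GDC0068 and 177 and 176 CPM under Degrader, with both drug arms below DMSO. It fell by 0.29 under Degrader (SE 0.0526, edgeR adjusted p = 0.00394) and by 0.24 under GDC0068 (SE 0.0526, edgeR adjusted p = 0.0339). Under GDC0068 it was the 1 gene of 30 called (3.33%, against 3.58% of all intervals tested). The GDC0068 call was lost when any 1 of the 6 libraries was left out (edgeR adjusted p from 0.0536 to 0.157). The arginine methyltransferase PRMT1 fell by 0.37 and the receptor scaffold PELP1 by 0.28 under Degrader (edgeR adjusted p of 0.00600 and 0.0121), while NRIP1, a corepressor induced by estrogen, rose by 0.24 (edgeR adjusted p = 0.0103). The call of PRMT1 was lost without DMSO replicate 1 (-0.28) or Degrader replicate 2 (-0.32), and so was that of PELP1 (-0.23 in both). That of NRIP1 was lost without DMSO replicate 2 (0.20), Degrader replicate 1 (0.21) or Degrader replicate 2 (0.27). With the replicate block 12 of 30 were called under Degrader (5 higher, 7 lower) and 7 under GDC0068 (1 higher, 6 lower). These are 40.0% and 23.3%, where that fit called 30.7% and 17.8% of all intervals; of the 22 genes at least as abundant as ELF3 they were 40.9% and 22.7%, against 52.6% and 32.8% of all such intervals.

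Of the 20 luminal markers, edgeR called 3 under Degrader (15.0%, 2 higher and 1 lower), also near the background. Under GDC0068 it called 0, against 3.58% of all intervals tested. An unadjusted edgeR p under 0.05 was found there for 4 of the 20 and for 3972 of the 19902 intervals tested. ERBB3, the HER3 receptor, stood at 146 and 156 CPM in DMSO, 169 and 198 CPM under GDC0068 and 215 and 234 CPM under Degrader. It rose by 0.58 under Degrader (SE 0.0737, edgeR adjusted p = 6.74e-04). PIP, a secreted protein of apocrine cells, rose by 0.61 (edgeR adjusted p = 0.00677), a call that robust estimation did not keep (edgeR adjusted p = 0.0934). The keratin KRT7 fell by 0.20 (edgeR adjusted p = 0.0361), which DESeq2 did not call (adjusted p = 0.0874) and which edgeR did not call without DMSO replicate 1 (-0.15), Degrader replicate 1 (-0.22) or Degrader replicate 2 (-0.20). The fit with the replicate block called 11 (6 higher, 5 lower) and 7 (5 higher, 2 lower), or 55% and 35% of the list, against 30.7% and 17.8% of all intervals in that fit; of the 10 markers at least as abundant as ELF3 it called 4 and 5, against 52.6% and 32.8% of all such intervals. The luminal keratin KRT8 stood at 483 ± 59, 537 ± 18 and 477 ± 36 CPM in DMSO, GDC0068 and Degrader (SD, n = 2). Its interval overlaps the start of another listed luminal marker on the other strand. Without stated use of strand, reads from the overlap cannot be told apart.

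Genes whose pattern over the 6 libraries was most like that of the core members were found by the root mean square difference of centred log2 CPM, among the 13896 other genes that averaged 10 CPM or more. For ESR1 the nearest were RASEF (0.016), RELL1 (0.017) and ATP5PF (0.018). For FOXA1 they were ZNF788P, H2BC6 and MAU2, at 0.012 to 0.013. For GATA3 they were CHDH, TACC2 and AC092115.4, at 0.016 to 0.018. None of these 9 nearest genes is one of the luminal factors or of the lists above. Those genes are a small part of the 13896 compared, so nothing is drawn from their absence.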

How the data were processed

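The authors deposited raw counts, 1 column per library and 1 row per gene interval. The submitters' processing notes name cutadapt 1.14, Bowtie 1.2.2, SAMtools 1.3.1, HISAT2 2.2.1 and limma, and the builds hg38, GRCh38 and dm3, with no role or order; use of strand, duplicate removal and the counted part of a gene are not given in the sources used here. Coordinates are those of the table, with starts counted from 1. No spike-in values were used here, so changes are relative to the bulk of genes.

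The analysis used edgeR 4.0.16 in R 4.3.3: filterByExpr (minimum count 10, minimum total 15) left 19902 of 20333 intervals, TMM factors were 0.997 to 1.003, and all 6 libraries entered a quasi-likelihood fit with a term per arm and 3 residual degrees of freedom. Calls used a Benjamini-Hochberg adjusted p under 0.05 over all intervals tested; CPM uses TMM-scaled library sizes, SE is the size of a log2 fold change over the square root of F, and 95% intervals use the moderated degrees of freedom. With 2 libraries per arm no exact permutation test can pass 0.05. DESeq2 1.42.0 and limma-voom (limma 3.58.1) were alternatives. The fitting script was also run on simulated data, which held no difference shared by replicate number, and no result here rests on that run.

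The pairing of libraries by replicate number rests on the labels' replicate numbers and the series' 2 independent experiments. Deviations of replicate 1 from the arm mean correlated across genes at 0.177 to 0.220 in the 3 pairs of arms. The replicate block is therefore printed where it changed the call of a member or of a transcript at its locus. For the partner, coregulator and luminal marker lists it is given as counts, and for the basal markers by gene. Under GDC0068 the block also called ZNF217, MYB, NRIP1, ERBB3, PIP and KRT8 (higher) and LMX1B, PRMT1, PELP1 and KRT7 (lower). Their edgeR adjusted p ran from 3.83e-07 to 0.0234, and the fit without the block called none of them there. Between the drugs it also called ZNF217, MYB and ERBB3 (higher under Degrader) and LMX1B, PRMT1 and KRT8 (lower). The labels do not say whether replicates were separate cultures, and p-values measure the spread between these libraries. The named genes were all members, every interval overlapping a member or starting within 5000 bp of it on the other strand, up to 4 called genes per list and contrast with the smallest adjusted p, and the nearest genes in pattern to ESR1, FOXA1 and GATA3; genes of the marker check and KRT8 were named after their values were seen. Members and lists were chosen with earlier results of these data known. 1 gene of the partner list is not reported here and is left out of that list's counts. Promoter sequences are from RefSeq (GRCh38.p14).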

Additional observations from a re-analysis of the deposited data

How the results depend on the processing

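With the replicate block, edgeR called 6 of the 9 luminal factor genes with Degrader, 4 with GDC0068 and 2 between the drugs, in place of 2, 0 and 0; of the 43 partner genes it called 20 under Degrader in place of 13, 15 under GDC0068 in place of 1, and 10 between the drugs in place of 0. Robust estimation gave 4 and 1 of the 9 under the 2 drugs, and 3 partner genes under GDC0068. limma-voom gave 4 and 1 of the 9. DESeq2 gave 1 of the 9 and 2 partner genes under GDC0068. Upper-quartile scaling also gave 2 partner genes there. For these settings and the fits with 1 library left out, the share of all intervals called was not counted. Their counts thus have no background beside them. Leaving out 1 library at a time gave 0 to 3 of the 9 under Degrader and 0 in the other contrasts, and 5 to 12 partner genes under Degrader, 0 to 2 under GDC0068 and 0 between the drugs; an arm left with 1 library is assumed to vary like the others, and fewer libraries leave fewer degrees of freedom. No log2 fold change of the 9 changed sign under the 8 settings that kept every library of the contrast. With 1 library left out, the sign changed in uncalled values near 0: SPDEF under Degrader (-0.10 to 0.024), TFAP2C under Degrader (-0.047 to 0.050), GATA3 under GDC0068 (-0.092 to 0.020), TRPS1 under GDC0068 (-0.035 to 0.15), ESR1 between the drugs (-0.058 to 0.12) and XBP1 between the drugs (-0.071 to 0.0073). The same held for GATA3-AS1 under Degrader (-0.086 to 0.057) and GDC0068 (-0.030 to 0.11), Z93930.2 under GDC0068 (-0.21 to 0.12) and AL691482.4 under GDC0068 (-0.10 to 0.012). Beside the values given with each gene, leaving out 1 library also moved these uncalled values by over 1.5 times without a change of sign: TFAP2A (0.020 to 0.098) and TFAP2C (-0.13 to -0.059) under GDC0068, Z93930.2 under Degrader (-0.16 to -0.038), and SPDEF (0.036 to 0.16), TFAP2C (0.050 to 0.15) and TRPS1 (0.038 to 0.22) between the drugs. Other causes were not tested. Median-ratio and upper-quartile scaling moved the median of all genes by less than 0.1.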
